A study of Mus musculus with 21 samples.

Results

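Open chromatin was compared between colon and small intestinal (SI) villus epithelium of the mouse with ATAC-seq, an assay that cuts accessible DNA with a transposase so that open regulatory sites appear as peaks of sequenced ends. The 6 peak lists of the 3 colon and 3 SI villus samples were used, of 21 samples in the series, together with a pooled interval list for each compartment. Peaks of the 6 lists that overlapped by at least 1 bp were merged into 79536 sites. A site was called colon-only when it held a peak in 3 of 3 colon and 0 of 3 SI villus samples, and villus-only in the opposite case. The mice carried the C57BL/6 label and an age of 90 days, with no mutation or transgene. The study describes the ATAC-seq mice as untreated chow-fed animals, whereas the sample labels carry a protocol of 10 ng/g 1,25-dihydroxyvitamin D3 for 1 h, so the treatment of these 6 samples could not be settled. Colon tissue was scraped from the whole colon without separating crypts from surface cells, and villi came from the proximal SI, so compartment differs together with preparation. The labels do not tie samples to mice, and p-values therefore measure the spread between samples.

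The gut epithelium changes along its length. Absorptive cells of the proximal SI villus carry brush border enzymes, sugar, amino acid and lipid transport systems, and their identity depends on GATA and HNF4 transcription factors. The colon epithelium recovers salt and water, and posterior HOX genes and CDX factors are known for its identity. Much of this difference is written in distal enhancers, the sites at which lineage factors bind, while promoters of widely used genes are open in most tissues. Vitamin D acts through its receptor VDR, which binds many of these sites in both compartments.

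The colon lists held 21269, 27984 and 32853 peaks, against 51037, 49469 and 43090 in the SI villus lists. Tags left after duplicate removal numbered 23368011, 26601480 and 38175468 in colon samples, against 22168237, 24458304 and 29247820 in SI villus samples. Colon samples had fewer peaks, with a geometric mean of 26941 against 47738 in SI villus, a difference of -0.82 on the log2 scale, while the tag numbers of the compartments overlapped, and the part of depth in this was not tested. The exact permutation test gave p = 0.1, the smallest that 20 splits of 3 against 3 samples allow. Colon 1 had the shortest list, and SI villus 3 stood apart with a fragment extension of 68 bp, against 134 and 145 bp in the other SI villus samples, a median peak width of 126 bp and a median −log10 q of 4.64. Pairs of samples of the same compartment shared 53.7-64.1% of their merged sites in colon and 47.3-65.4% in SI villus (Jaccard index of site presence). Pairs between compartments shared 30.6-39.4%, and every pair within a compartment was more alike than any pair across them. Because pileup (fragments stacked at the summit) grows with depth and extension, pileups are given as descriptions and are not compared between samples.

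The DNA of some of the strongest distal sites at genes of the lists used here is shown because these sites combine a strong peak in every sample of one compartment with no peak in the other. Each run is 200 bases at the site's summit on the + strand of mm9, and capitals mark matches to the motifs searched, of which GATA is AGATAA, AP-1 TGANTCA, FOXA TGTTTNC, KLF GGGNGTGG, IRF AAANNGAAA and GR ACANNNTGT on either strand. On the colon side, the site 20.6 kb upstream of Lypd8 (annotated as 2210415F13Rik) at chr11:58171797-58171996 held no match. The site 40.2 kb upstream of Cdh5 at chr8:106585191-106585390 held an IRF and a FOXA match, and the site 2.35 kb upstream of Car4 at chr11:84768837-84769036 an AP-1 and a KLF match.
Lypd8: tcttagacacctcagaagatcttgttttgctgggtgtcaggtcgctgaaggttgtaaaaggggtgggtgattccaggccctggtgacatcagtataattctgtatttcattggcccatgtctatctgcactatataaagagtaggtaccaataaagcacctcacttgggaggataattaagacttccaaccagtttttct
Cdh5: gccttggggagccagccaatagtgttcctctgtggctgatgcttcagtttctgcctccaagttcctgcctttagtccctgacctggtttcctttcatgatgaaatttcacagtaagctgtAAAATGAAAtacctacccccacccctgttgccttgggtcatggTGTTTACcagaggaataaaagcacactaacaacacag
Car4: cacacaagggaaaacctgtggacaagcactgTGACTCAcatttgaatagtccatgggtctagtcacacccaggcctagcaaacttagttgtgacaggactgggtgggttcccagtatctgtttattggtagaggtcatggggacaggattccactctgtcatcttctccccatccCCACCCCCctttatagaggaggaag
On the villus side, the site 41.2 kb downstream of the Hpgd start at chr8:58814497-58814696 held a GATA and a GR match, and the site 1.65 kb upstream of Apoa4 at chr9:46047026-46047225 an AP-1 match. For Slc2a2, the site 112 kb upstream at chr3:28485132-28485331, in an intron of another gene, held none. The site 24.1 kb past the start at chr3:28620801-28621000 held 2 GATA matches and an AP-1 match.
Hpgd: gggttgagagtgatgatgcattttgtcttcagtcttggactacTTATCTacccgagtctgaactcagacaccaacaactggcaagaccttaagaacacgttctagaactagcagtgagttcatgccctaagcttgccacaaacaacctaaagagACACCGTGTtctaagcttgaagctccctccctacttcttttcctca
Apoa4: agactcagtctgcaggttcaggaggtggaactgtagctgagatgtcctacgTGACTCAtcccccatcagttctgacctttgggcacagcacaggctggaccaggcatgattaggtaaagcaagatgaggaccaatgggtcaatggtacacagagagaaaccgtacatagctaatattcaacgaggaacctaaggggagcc
Slc2a2 upstream: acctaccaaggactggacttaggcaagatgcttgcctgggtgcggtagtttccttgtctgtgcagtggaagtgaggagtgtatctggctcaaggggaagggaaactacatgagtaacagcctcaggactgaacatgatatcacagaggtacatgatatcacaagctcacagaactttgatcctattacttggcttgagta
Slc2a2 intron: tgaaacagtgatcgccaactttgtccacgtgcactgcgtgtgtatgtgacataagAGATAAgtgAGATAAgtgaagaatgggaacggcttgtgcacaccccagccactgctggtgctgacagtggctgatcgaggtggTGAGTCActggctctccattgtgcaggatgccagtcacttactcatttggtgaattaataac
Of all 79536 sites, 13.5% held the GATA letters, 17.2% AP-1, 14.5% FOXA, 11.7% KLF, 5.37% IRF and 6.07% GR in such a window, so a single match does not set a site apart.

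Of the union, 1597 sites were colon-only (2.01%), 8673 were villus-only (10.9%) and 13159 (16.5%) held a peak in all 6 samples. The largest single class was sites called in a single SI villus sample and in no colon sample, with 23378 sites or 29.4% of the union, whereas 8027 sites were called in a single colon sample alone. A further 2156 sites were called in 2 colon samples alone and 9087 in 2 SI villus samples alone. The villus-only side was thus the larger, in the compartment with the longer lists. In tissue preparations, a site open in fewer cells and a site less open in each cell cannot be told apart, and a missing peak means that no peak passed the threshold, not that the DNA was closed.

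**Figure D1:**
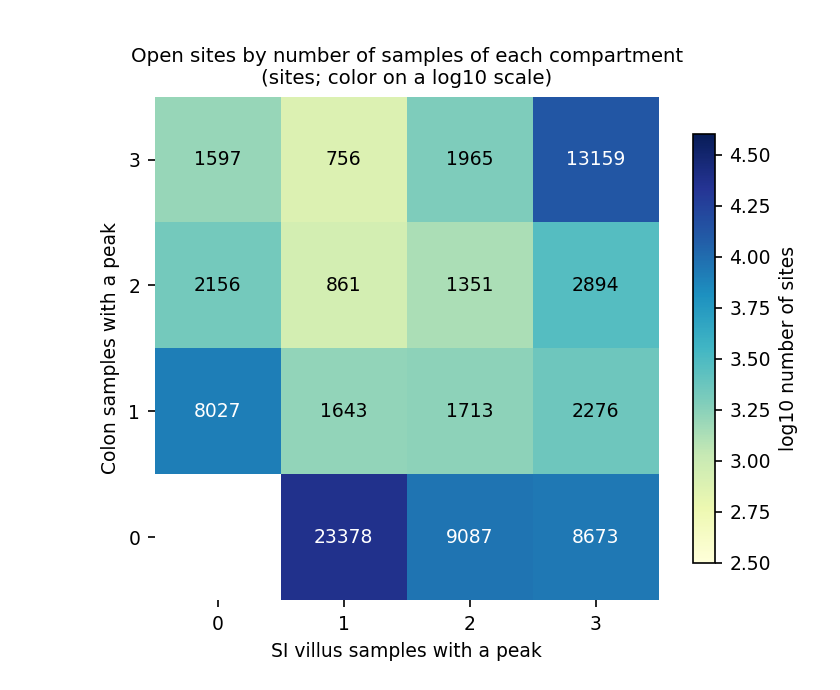
Number of union sites by the number of colon samples (vertical) and SI villus samples (horizontal) with a peak there, with color on a log10 scale. The corners hold 1597 colon-only, 8673 villus-only and 13159 sites called in all 6 samples, and 23378 sites were called in 1 SI villus sample alone.

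The class counts depended on how many peaks each list held. When each sample was restricted to its 21269 peaks of highest pileup, 2954 sites were colon-only and 3119 villus-only among 38038, and the sides became nearly equal in number. Of the 1597 colon-only sites, 1145 (71.7%) were colon-only in this setting too, and they made up 38.8% of the 2954. Of the 8673 villus-only sites, 2449 (28.2%) were villus-only again, or 78.5% of the 3119. The other sites of each equal-number class held a peak of the other compartment in the full lists. Counts of restricted sites at equal numbers therefore include sites with such a peak, more so on the colon side. The lowest pileup kept was 9, 16 and 25 in colon samples, against 29, 24 and 12 in SI villus samples. Without Colon 1, 3270 sites would be colon-only, and without SI villus 3, 15811 would be villus-only.

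The pooled lists gave a wider view. Of 39428 pooled colon intervals, 11414 (28.9%) overlapped no pooled SI villus interval, and of 64782 pooled SI villus intervals, 36341 (56.1%) overlapped no pooled colon interval. Pooled colon intervals held 97.5% of the colon-only sites and 9.95% of the villus-only sites, whereas pooled SI villus intervals held 11.8% and 99.4%. Hence about 1 site in 10 on either side lay in a region where the pooled reads of the other compartment gave an interval. An alternative chosen after the data were seen kept only sites inside their own pooled list and outside the other, which left 1370 colon-only and 7759 villus-only sites.

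Restricted sites were mostly distal on both sides. A promoter was taken as a summit within 1 kb of a protein-coding transcription start, and 119 colon-only sites (7.45%) and 607 villus-only sites (7.0%) lay there, against 58.5% of the sites called in all 6 samples and 19.3% of the union. Colon-only sites were intronic in 36.7% and intergenic in 53.8% of cases, and villus-only sites in 45.2% and 45.4%. The median distance to the nearest start was 24.0 kb for colon-only and 19.3 kb for villus-only sites, against 0.20 kb for sites called in all 6. Median GC content at the summit was 46% for colon-only and 47.5% for villus-only sites, against 60% for sites called in all 6. The pooled lists had the same layout, with 8.35% promoters among colon intervals without an SI villus partner, against 39.1% among those with one, and 9.01% against 39.7% for SI villus intervals.

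Per sample, promoters took a larger share of the colon lists. At equal numbers of peaks the promoter share was 44.8%, 45.7% and 44.1% in colon samples, against 41.8%, 39.4% and 40.0% in SI villus samples. The compartments did not overlap, with means of 44.9% ± 0.773 in colon and 40.4% ± 1.22 in SI villus (SD, n = 3 each), a difference of 4.49 percentage points, and the two-sided exact permutation test gave p = 0.1, the smallest possible. Over all peaks the shares were 44.8%, 38.2% and 34.4% in colon samples, against 27.0%, 28.1% and 29.2% in SI villus samples, a difference of 11.03 percentage points. At equal numbers the promoter share of colon-only sites was 21.8%, against 7.41% of villus-only sites, so the distal character of the colon side was weaker in that setting.

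Sites were named by the protein-coding gene with the nearest start, which gives a position and not a target. Colon-only sites were nearest to 1293 of 22367 genes (5.78%) and villus-only sites to 4925 (22.0%). A promoter was open in 3 colon and 0 SI villus samples at 75 genes (0.335%), and in 0 colon and 3 SI villus samples at 310 genes (1.39%). These shares are the background for each list of genes that follows. Of 313 listed symbols 311 were found in the annotation, and 47 had a colon-only and 133 a villus-only site.

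Genes of colon ion and water transport had the most colon-only sites of any list. Of its 21 genes, 12 had a colon-only site and 12 a villus-only site, with 21 and 26 sites, and at equal numbers of peaks 13 and 6 genes, with 26 and 9 sites, where 10.4% and 10.1% of all genes had such a site. The upstream site of Car1, a carbonic anhydrase of colon epithelium, lay 1.94 kb from the start at chr3:14780200-14780696 and had pileups of 20, 32 and 50 in colon samples and no peak in SI villus samples. The site 2.35 kb upstream of Car4, the membrane-bound carbonic anhydrase whose sequence is shown above, had pileups of 42, 53 and 68 in colon samples and no peak in SI villus samples, although a pooled SI villus interval covered it. A second Car4 site, 11.8 kb upstream, had 25, 33 and 48 in colon samples and no peak in SI villus samples. Neither gene had a villus-only site.

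Other members had restricted sites of both kinds. The intronic site 10.2 kb past the start of Slc26a3, the chloride/bicarbonate exchanger of surface colonocytes, had pileups of 23, 39 and 55 in colon samples and no peak in SI villus samples, while its promoter was open in all 6 samples. The site 18.7 kb upstream of Aqp8, a water channel, had 30, 31 and 44 in colon samples, held the HOX13 letters (TCGTAAA), and lay next to a villus-only site 18.2 kb upstream with pileups of 19, 19 and 12 in SI villus samples. Atp12a, the colonic proton/potassium pump, was the sole member whose promoter was open in 3 colon and 0 SI villus samples, with pileups of 23, 39 and 31. Nr3c2, the mineralocorticoid receptor, had 3 colon-only and 7 villus-only sites around a promoter open in all 6 samples.

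Colon identity genes, among them the posterior HOX genes, had few sites, and the colon-only ones lay mostly at promoters. Of 17 genes 3 (17.6%) had a colon-only and 1 (5.88%) a villus-only site, against 5.78% and 22.0% of all genes. At equal numbers of peaks 4 and 0 genes had one, where all genes had 10.4% and 10.1%. The Hoxa13 promoter site had pileups of 22, 38 and 37 in colon samples and none in SI villus samples, with a separate peak within the promoter window in 1 SI villus sample. The Hoxb9 promoter had 20, 18 and 22 in colon samples and no SI villus peak. The villus-only site of the list was nearest to Hoxb13.

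Whole HOX clusters were counted after their values had been seen. The HoxA cluster held 6 colon-only and 0 villus-only sites, with 11, 12 and 13 peaks in colon samples, against 7, 3 and 2 in SI villus samples. HoxB held 2 colon-only and 0 villus-only sites, with 5, 9 and 10 peaks in colon samples, against 3, 4 and 3 in SI villus samples. HoxD held 1 and 0, with 1, 5 and 3 against 1, 3 and 1 peaks, and HoxC held none of either. The colon counts lay above the SI villus counts in every sample of HoxA and HoxB, with no such gap at HoxC or HoxD. Promoters open in 3 colon and 0 SI villus samples included those of Hoxa3, Hoxa5, Hoxb9 and Hoxd1, so anterior members were among them.

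The strongest distal colon-only sites, ranked by pileup within each sample and required to lie in the pooled colon list (a filter set after the data were seen), were led by Lypd8, which encodes a colonic protein that keeps flagellated bacteria from the epithelium. Its upstream site, shown above, had pileups of 56, 74 and 102 in colon samples and no peak in SI villus samples. Its promoter had 29, 32 and 52 in colon samples and no peak in SI villus samples, although it lay in a pooled SI villus interval, and 2 of 3 SI crypt samples were open at each site. Bmper, a BMP-binding protein, had an upstream site of 57, 63 and 109 in colon samples. Fzd10, a WNT receptor, had a site of 54, 69 and 89 located 21.5 kb upstream, and Trpm6, an epithelial magnesium channel, an intronic site of 50, 63 and 99. None of these 3 sites had a peak in an SI villus sample. However, the Bmper and Trpm6 sites were open in 3 of 3 SI crypt samples and the Fzd10 site in 2 of 3.

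At promoters, the strongest colon-only sites were those of Mamstr, a transcriptional coactivator, with pileups of 54, 84 and 101 in colon samples, and of Slc2a1, the glucose transporter GLUT1, with 49, 70 and 86. The Slc2a1 promoter had no peak in an SI villus sample but lay in a pooled SI villus interval and was open in 3 of 3 SI crypt samples, as was that of Soat1, which esterifies cholesterol, with 40, 53 and 74 in colon samples. Myh14, a non-muscle myosin, had 37, 47 and 58 in colon samples and neither an SI crypt peak nor a pooled SI villus interval. Slc2a1 had 4 colon-only and 0 villus-only sites. More colon-only sites lay nearest to Klf6, a zinc-finger factor, with 9 and 6 villus-only sites, and Ikzf2, a lymphoid zinc-finger factor, with 6 and 0 and with its own promoter open in no sample of either compartment. Klf4, a factor of differentiated epithelium, had 5 colon-only and 6 villus-only sites around a promoter open in all 6 samples.

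On the villus side, brush border hydrolases, the enzymes that finish digestion at the cell surface, had a colon-only site at 1 of 17 genes, against a villus-only site at 14, and at equal numbers of peaks 3 and 9. Promoters of 6 of them were open in 0 colon and 3 SI villus samples. The promoter of Sis, sucrase-isomaltase, had no peak in colon samples and pileups of 50, 25 and 12 in SI villus samples, and its site 35.7 kb upstream had no peak in colon samples and 52, 44 and 15 in SI villus samples. Lct, lactase, had 2 villus-only sites, of which the intronic one 4.85 kb past the start had no peak in colon samples and 45, 28 and 16 in SI villus samples. Dpp4, a dipeptidyl peptidase, had 7 villus-only sites and a promoter open in 2 colon and 3 SI villus samples. The colon-only site belonged to Mep1b, a meprin subunit that also had 4 villus-only sites.

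Uptake of sugars, peptides and amino acids followed, with a colon-only site at 0 of 12 genes and a villus-only site at 8, and at equal numbers 2 and 6. Slc2a2, the basolateral glucose transporter GLUT2, had 10 villus-only sites, and its promoter had no peak in colon samples and pileups of 33, 32 and 12 in SI villus samples. Its sites 112 kb upstream and 24.1 kb past the start, shown above, had no peak in colon samples and 59, 45 and 22 or 54, 49 and 20 in SI villus samples. The upstream one lay in an intron of another gene, as did further counted sites up to 135 kb upstream. The promoter of Slc6a19, the main neutral amino acid carrier, had no peak in colon samples and 45, 30 and 13 in SI villus samples. Slc5a1, the sodium-glucose carrier, had 3 villus-only sites while its promoter was open in 2 colon samples.

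Fat absorption and chylomicron genes had a colon-only site at 1 of 19 genes and a villus-only site at 14, and at equal numbers 4 and 12. Apoa4, an apolipoprotein of chylomicrons, had a site 1.65 kb upstream with no peak in colon samples and pileups of 67, 53 and 27 in SI villus samples. A second Apoa4 site, 3.35 kb past the start, had no peak in colon samples and 40, 37 and 17 in SI villus samples. The Fabp1 promoter, of a fatty acid binding protein, had no peak in colon samples and 28, 20 and 11 in SI villus samples. Mttp, which loads lipid onto apolipoprotein B, had 5 villus-only sites around a promoter open in all 6 samples, so there the restriction lay at introns alone.

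Transcription factors of the proximal intestine had villus-only sites spread over long distances. Of 17 genes 4 had a colon-only and 10 a villus-only site, with 8 and 49 sites, but 3 and 19 sites within 50 kb of a start, and at equal numbers 6 and 7 genes. Klf5 had 0 colon-only and 13 villus-only sites, Gata6 had 0 and 11, and Gata4 had 0 and 10, where the GATA factors specify proximal absorptive cells and Klf5 marks proliferating epithelium. The intronic Gata4 site 10.0 kb past the start had no peak in colon samples and pileups of 58, 34 and 17 in SI villus samples, and the distal Gata6 site 321 kb away had no peak in colon samples and 54, 51 and 23 in SI villus samples. Promoters of Gata6 and Klf5 were open in all 6 samples and that of Gata4 in 2 colon and 3 SI villus samples. The promoter of Onecut2, a factor of the proximal gut, had no peak in colon samples and 58, 47 and 21 in SI villus samples, although it lay in a pooled colon interval. It was also open in 3 of 3 SI crypt samples. Cdx2, which is used along the whole intestine, had no restricted site and a promoter open in all 6, and Cdx1 had 1 colon-only site with pileups of 30, 44 and 45 in colon samples and a peak in 3 of 3 SI crypt samples.

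The strongest villus-only promoter was that of Rgs3, a regulator of G-protein signaling, with no peak in colon samples and pileups of 61, 49 and 23 in SI villus samples, and others among the 10 strongest were those of Ggt1, which degrades glutathione, with 56, 40 and 21, Slc5a9, a sodium-sugar carrier, with 48, 45 and 21, and Leap2, an antimicrobial peptide and ghrelin receptor antagonist, with 46, 52 and 19. The promoter of Gsta1, a glutathione transferase, had no peak in colon samples and 51, 40 and 22 in SI villus samples, but the neighboring near-identical Gm3776 promoter was called too, and reads of the copies may be shared between them. The strongest distal sites included that of Rai14, a cytoskeletal protein, with no peak in colon samples and 80, 69 and 30 in SI villus samples. The Hpgd site, near the enzyme that inactivates prostaglandins, had no peak in colon samples and 64, 54 and 29 in SI villus samples, although it and the Rai14 site lay in a pooled colon interval. Both sites were also open in 3 of 3 SI crypt samples, as were the Slc5a9, Leap2 and Gsta1 promoters. The Rgs3 and Ggt1 promoters were open in 2 of 3, so these sites were not particular to the villus within the SI. Outside the lists, most villus-only sites lay nearest to Tbl1xr1 with 15, a corepressor subunit, Maf with 13, a leucine zipper factor, and Pde4d with 13, a phosphodiesterase gene 1504 kb long.

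Mineral transport and vitamin D genes were counted next. Iron, calcium and manganese transport genes had a colon-only site at 4 of 11 and a villus-only site at 4 of 11, with 4 colon-only and 13 villus-only sites. At equal numbers of peaks the order of the sites turned, with 5 and 3 genes and 7 and 3 sites. Over all peaks Slc30a10, a manganese exporter, held 5 villus-only sites. Atp2b1, the basolateral calcium pump, held 1 colon-only and 5 villus-only sites. The intronic site of Slc39a4, a zinc importer, had pileups of 38, 47 and 75 in colon samples and no peak in SI villus samples. Among 7 vitamin D genes, Vdr alone had restricted sites. Its site 15.1 kb upstream had 25, 32 and 55 in colon samples and its intronic site 20, 22 and 16, with no peak in SI villus samples at either. Cyp24a1, which breaks down the hormone, had no restricted site and a promoter open in 1 colon and 3 SI villus samples, and Trpv6, the apical calcium channel, had no restricted site and no promoter peak in any sample.

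**Figure D2:**
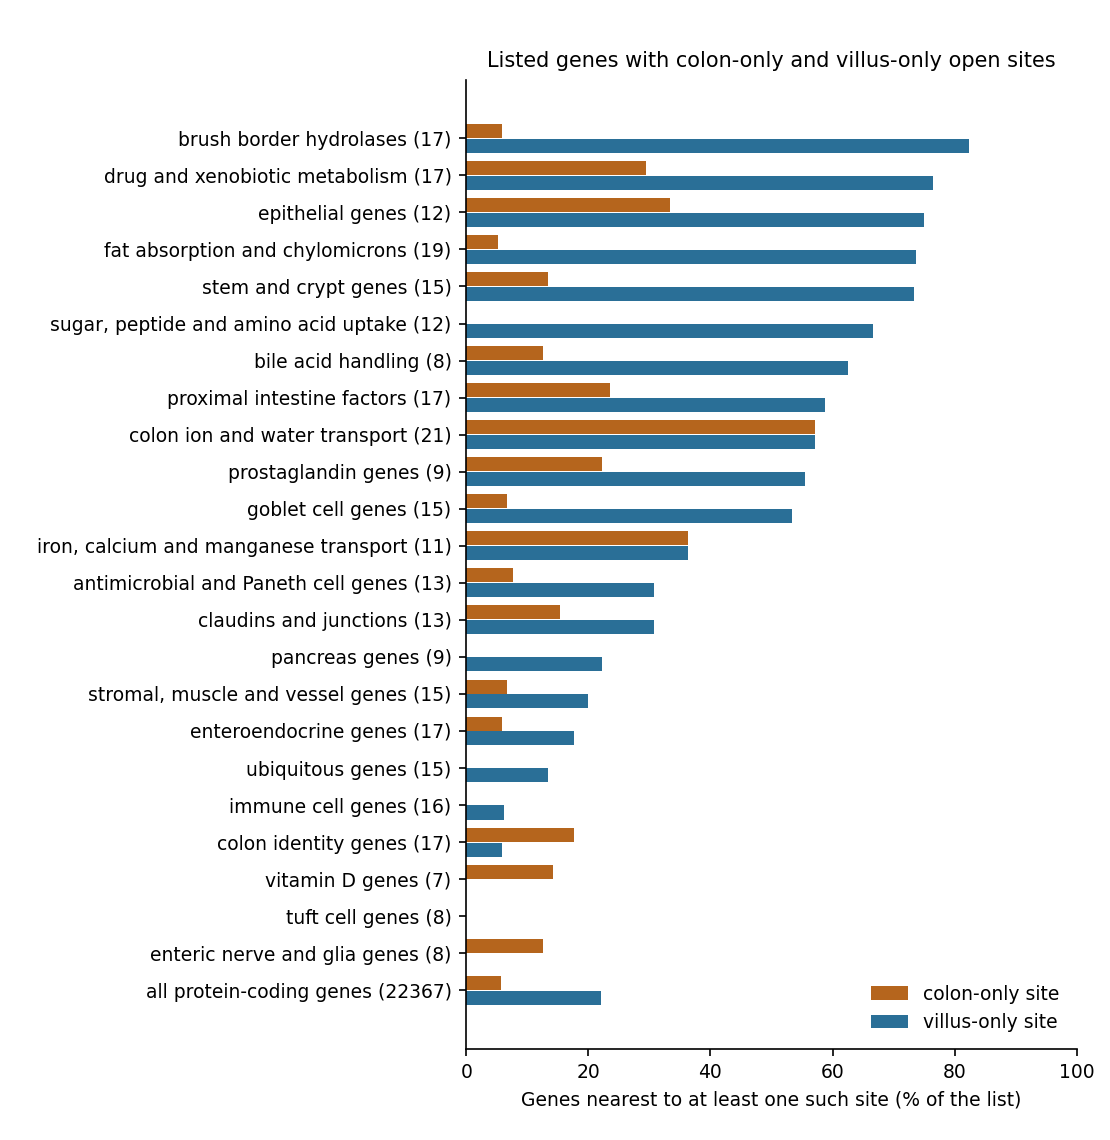
Share of the genes of each list (percent, list size in parentheses) that were nearest to at least 1 colon-only site or at least 1 villus-only site, with all 22367 protein-coding genes at the bottom at 5.78% and 22.0%. Brush border hydrolases reach 14 of 17 genes on the villus side, and colon ion and water transport 12 of 21 on both.

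Markers of other cells were checked in the same lists. All 12 epithelial genes had a promoter peak in some sample, in 3 of 3 colon samples for 10 and in 3 of 3 SI villus samples for 8. Of all 22367 genes, 42.8% had a promoter open in 3 colon samples, 43.9% in 3 SI villus samples and 42.1% in none of the 6. Of 16 immune cell genes, none had a promoter peak in any colon or SI villus sample, and 0 had a colon-only and 1 a villus-only site. Of 15 stromal, muscle and vessel genes, 3 had a promoter peak in some sample, none in all 3 samples of a compartment, and 1 had a colon-only and 3 a villus-only site. The colon-only one was the Cdh5 site shown above, near an endothelial cadherin gene, which was also open in 3 of 3 SI crypt samples. Of 8 enteric nerve and glia genes 3 and of 9 pancreas genes 3 had a promoter peak, of which 2 and 2 in all 3 SI villus samples and none in all 3 colon samples. The 15 ubiquitous genes were open in 3 of 3 colon samples at 15 promoters and in 3 of 3 SI villus samples at 14.

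Lineage factors bind short DNA motifs within such sites. Each of 17 motifs was searched on either strand of the 200 bases at each summit, with distal peaks ranked by pileup and cut to 11738 per sample. The GATA letters occurred in 9.72%, 10.3% and 10.5% of distal peaks in colon samples, against 22.0%, 22.0% and 18.6% in SI villus samples, with means of 10.2% ± 0.395 and 20.9% ± 1.96 (SD, n = 3 each). The colon share was 0.486 times the SI villus share. AP-1 letters, of the FOS and JUN family, occurred in 21.3%, 25.2% and 26.7% of distal peaks in colon samples, against 31.4%, 31.4% and 27.5% in SI villus samples, and the groups were close but apart.

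Among the motifs higher in every colon than every SI villus sample were CDX (CATAAA), FOXA, KLF and the posterior HOX motif HOX13. CDX occurred in 17.1%, 19.1% and 20.6% of distal peaks in colon samples, against 15.3%, 14.4% and 13.1% in SI villus samples. FOXA occurred in 17.7%, 17.9% and 18.3% in colon samples, against 14.7%, 14.4% and 14.2% in SI villus samples, and KLF in 14.6%, 16.3% and 16.6%, against 12.2%, 11.8% and 11.2%. HOX13 was rare, in 0.750%, 0.699% and 0.775% in colon samples, against 0.469%, 0.486% and 0.409% in SI villus samples. In each of these 4 the compartments did not overlap, with colon shares 1.32, 1.24, 1.35 and 1.63 times those of SI villus. The other motifs higher in colon were CTCF, NRF1 and PU.1, and CTCF and NRF1 had the largest ratios of colon to SI villus share of all 17. CTCF letters occurred in 0.503% ± 0.0295 of distal peaks in colon and 0.168% ± 0.0130 in SI villus samples, NRF1 letters in 0.310% ± 0.0344 and 0.108% ± 0.0214, and PU.1 letters in 3.00% ± 0.139 and 2.15% ± 0.0469 (SD, n = 3 each).

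In distal peaks 7 motifs (41.2%) were higher in every colon than every SI villus sample and 4 (23.5%) were lower. Over all peaks at equal numbers 13 of 17 (76.5%) were apart, 8 above (47.1%) and 5 below (29.4%). Since most motifs differed in this way, a gap between the compartments does not by itself mark a motif. The exact permutation test cannot pass p = 0.1 at this size, and the smallest adjusted p over the 17 motifs was 0.155 for distal peaks. The letters of HNF4A (CAAAGTCCA), HNF1 (GTTAATNAT), ETS, RUNX, IRF and GR overlapped between compartments in distal peaks.

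**Figure D3:**
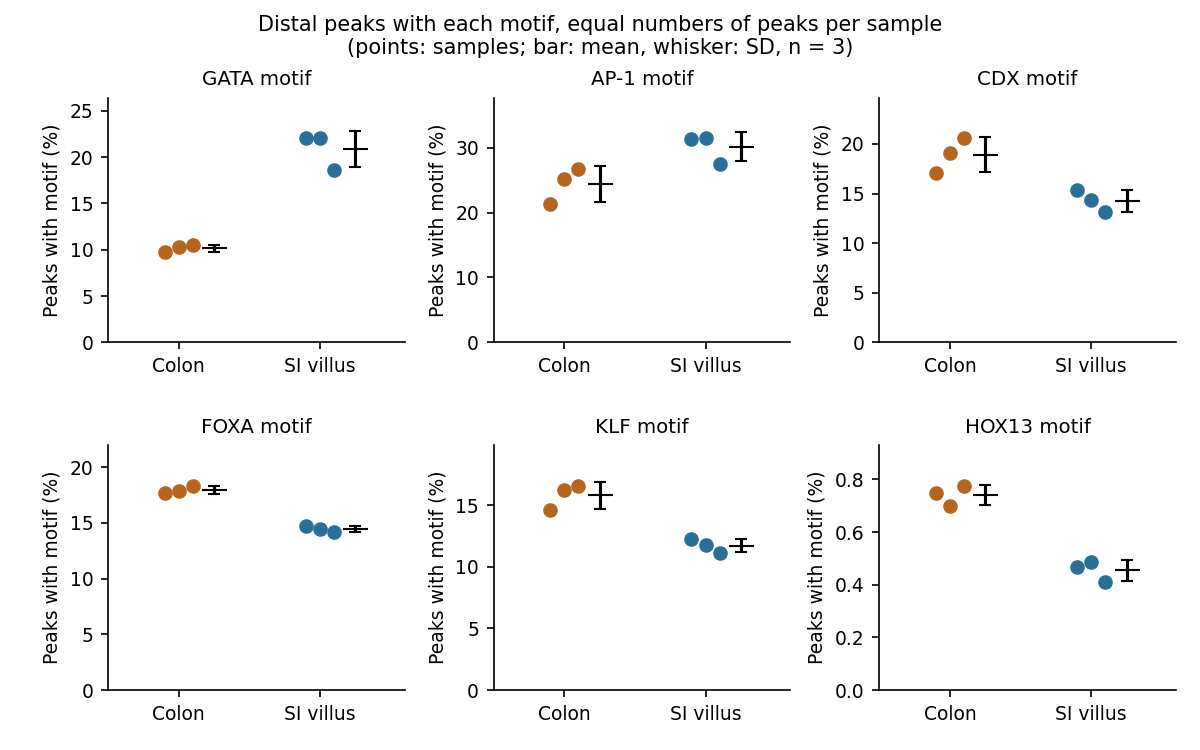
Percent of distal peaks with a motif in the 200 bases at the summit, for 6 motifs, in the 3 colon and 3 SI villus samples at 11738 peaks per sample (points), with the mean and SD beside them. GATA averages 10.2% in colon and 20.9% in SI villus samples, and CDX 18.9% and 14.3%.

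At the restricted sites the letters of GATA, CDX, FOXA, HOX13 and PU.1 differed more, as a description of the classes. CTCF letters went the other way there, in 0.0626% of colon-only (1) and 0.161% of villus-only sites (14), against 0.666% of the union. AP-1 letters lay in 22.7% and 29.6%, against 17.2%. GATA lay in 6.89% of colon-only sites (110) and 29.1% of villus-only sites (2522), against 13.5% of the union. CDX lay in 31.1% of colon-only (497) and 13.8% of villus-only sites (1199), against 12.3% of the union, and FOXA in 25.8% (412) and 13.7% (1184), against 14.5%. HOX13 lay in 1.44% of colon-only and 0.461% of villus-only sites, against 0.508% of the union, and PU.1 letters (GAGGAAGT), of a myeloid factor, in 4.57% and 1.97%, against 2.17%. HNF4A occurred in 1.50% of colon-only and 3.06% of villus-only sites. Of the named sites, Aqp8 carried HOX13, Car1 and the upstream Vdr site CDX, and the Gata4 and Slc2a2 introns GATA.

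Sites with a peak in all 6 samples were compared by peak strength, on fold enrichment, the pileup over the local background of the same sample. After quantile normalization limma called 1359 sites stronger in colon (10.3%) and 1418 stronger in SI villus (10.8%) of 13159 at a Benjamini-Hochberg adjusted p of 0.05. The log2 differences had a median of 0.63 and reached 1.74 among sites stronger in colon, and had a median of -0.69 and reached -1.74 among those stronger in SI villus. At promoters 993 sites were stronger in colon and 458 in SI villus, of 7695, and at distal sites 366 and 960, of 5464. That split depended on scaling. With distal sites normalized alone, 641 were stronger in colon and 601 in SI villus (22.7% of the 5464 in either direction), so that colon took 51.6% of the calls instead of 27.6%. Leaving out Colon 1, 2 or 3 left 524, 572 and 574 sites stronger in colon and 795, 849 and 864 stronger in SI villus.

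The largest colon difference was an intronic site of Plekha7, an adherens junction protein, at chr7:123430271-123430876, with fold enrichments of 13.6, 16.1 and 14.5 in colon samples, against 4.11, 3.68 and 4.08 in SI villus samples. The log2 difference was 1.74 ± 0.18 (SE), with a limma adjusted p of 3.9e-05. An intronic site of Neo1, the netrin receptor neogenin, had 17.2, 18.9 and 18.1 in colon samples, against 6.53, 6.54 and 5.33 in SI villus samples, and the promoter of Twf1, an actin-binding protein, 15.9, 16.6 and 16.5 against 7.52, 6.32 and 4.38. Colon and SI villus samples did not overlap at any of these 3 sites, which were chosen for their size. The printed fold enrichments are those before normalization. On that scale the compartments did not overlap at 36.2% of all 13159 shared sites, with colon above at 3863 and below at 894.

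The largest villus difference was an intronic site of Filip1l, a regulator of cell migration, with fold enrichments of 3.96, 4.35 and 6.09 in colon samples, against 16.4, 14.4 and 12.9 in SI villus samples, a log2 difference of -1.74 ± 0.17 (SE) and a limma adjusted p of 1.57e-05. The site 8.05 kb upstream of Dpp4 had 3.94, 7.14 and 3.41 in colon samples, against 14.0, 11.1 and 10.4 in SI villus samples, a log2 difference of -1.50 ± 0.22. This brush border gene thus had a graded site beside its 7 villus-only sites. The promoter of Oxr1, an oxidation resistance protein, had 5.25, 5.90 and 6.09 in colon samples, against 15.9, 15.8 and 11.3 in SI villus samples.

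**Figure D4:**
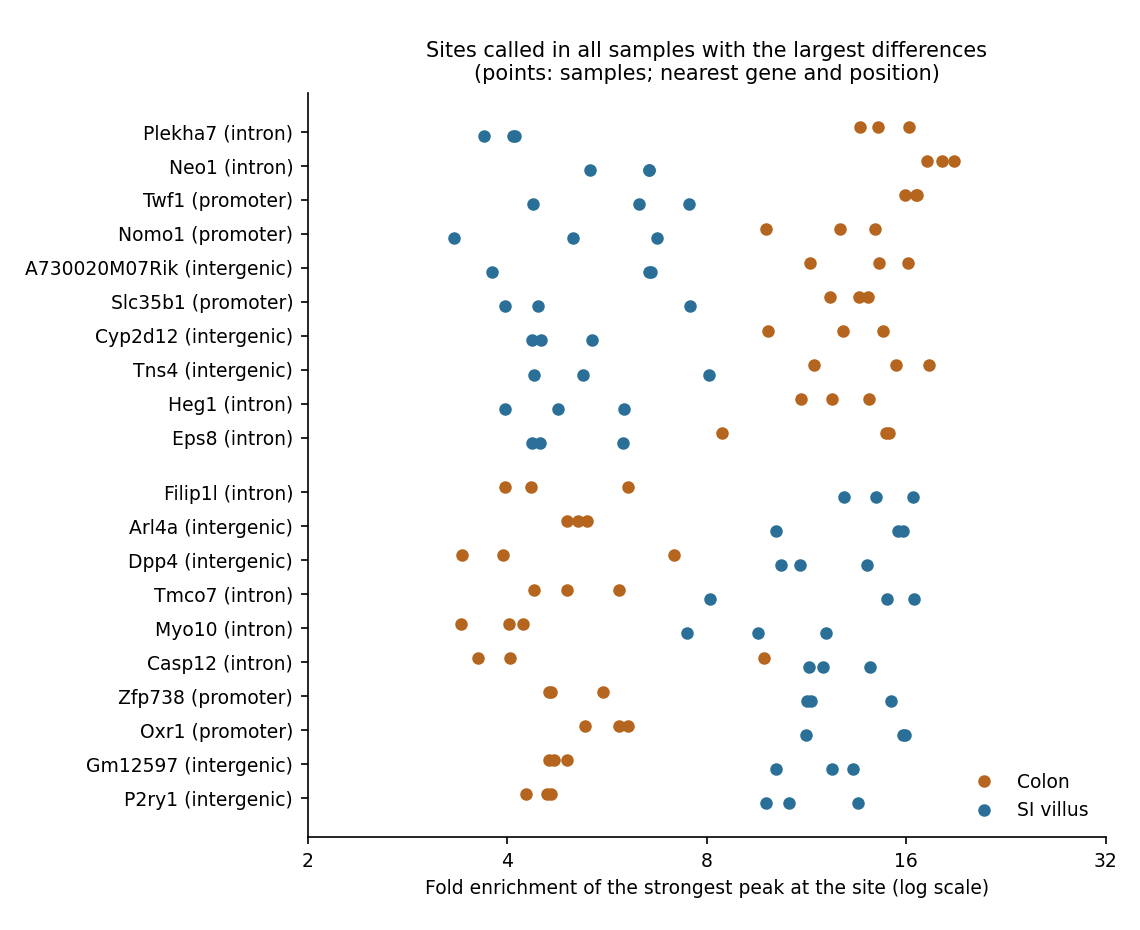
Fold enrichment (log scale) of the strongest peak in each of the 3 colon and 3 SI villus samples at the 10 sites most in favor of colon (upper rows) and of SI villus (lower rows) among sites with a peak in all 6 samples, labeled by nearest gene and position. At Plekha7 the colon samples lie between 13.6 and 16.1, above SI villus samples between 3.68 and 4.11.

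Listed genes with shared sites gave the following values. The promoter of Hnf4g, the HNF4 paralog of the intestine, had fold enrichments of 3.94, 7.46 and 4.87 in colon samples, against 13.2, 11.2 and 12.1 in SI villus samples, a log2 difference of -1.37 ± 0.20 with a limma adjusted p of 0.000367. The promoter of Slc11a2, the iron importer DMT1, had 12.4, 17.6 and 16.3 in colon samples, against 7.09, 7.80 and 5.63 in SI villus samples, a log2 difference of 1.01 ± 0.16 with an adjusted p of 0.000514. The promoter of Slc40a1, the iron exporter ferroportin, differed the other way by -0.66 ± 0.16, so the importer and the exporter of iron had opposite signs. The promoter of Dgat1, which makes triglyceride, had 14.6, 15.6 and 14.4 in colon samples, against 10.1, 5.96 and 4.50 in SI villus samples, a log2 difference of 1.02 ± 0.19, in a list with villus-only sites at 14 of 19 genes. These calls held under pileup and under median centering.

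By list, limma called 2 shared sites of proximal intestine factors stronger in colon and 9 in SI villus, of 40, and 1 and 6 of 22 for iron, calcium and manganese transport. Colon ion and water transport genes had 3 and 6 of 31. These counts too depended on scaling, since with distal sites normalized alone 0 distal sites of colon ion and water transport genes were stronger in colon and 2 in SI villus, against 0 and 6 in the first scaling, and 1 and 4 of proximal intestine factors, against 1 and 8. Epithelial genes had 8 and 3 of 33, including the Epcam promoter, of an epithelial adhesion molecule, at a log2 difference of 0.71 ± 0.19, and ubiquitous genes had 4 and 0 of 22. These shares stand beside 10.3% and 10.8% of all shared sites. By position in the first scaling they were 12.9% and 5.95% of shared promoter sites, but 6.70% and 17.6% of shared distal sites. A list with mostly distal or mostly promoter calls is therefore to be read beside the share of that position.

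GATA lay in 7.92% of distal sites stronger in colon and 19.1% of those stronger in SI villus, against 12.7% of all shared distal sites. AP-1 lay in 26.0% and 37.8%, against 28.6%, KLF in 19.9% and 11.8%, against 15.4%, and CDX in 19.9% and 14.2%, against 15.6%. With distal sites scaled alone GATA lay in 8.58% and 20.8%. These sites and the restricted ones came from the same 6 samples.

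VDR ChIP-seq of 4 colon and 4 SI villus samples, from mice given 10 ng/g 1,25-dihydroxyvitamin D3 for 1 h, had no part in choosing the sites. These mice were labeled as 4 to 6 weeks old, whereas the methods of the study give an older age, so their age could not be settled. Of the VDR peaks of a sample, 1.76%, 2.89%, 1.76% and 2.08% in colon samples overlapped a colon-only site, against 0.318%, 0.417%, 0.586% and 0.370% in SI villus samples. At villus-only sites the shares were 2.102%, 2.89%, 2.59% and 3.04% of VDR peaks in colon samples, against 4.34%, 5.74%, 8.73% and 9.79% in SI villus samples. The groups did not overlap at either class. The means were 2.12% ± 0.535 in colon and 0.423% ± 0.116 in SI villus at colon-only sites, and 2.66% ± 0.414 in colon and 7.15% ± 2.54 in SI villus at villus-only sites (SD, n = 4 each), differences of 1.70 and -4.49 percentage points. The two-sided exact permutation test gave p = 0.0286 for each, the smallest that 70 splits allow. Without any 1 of the colon VDR samples the villus-only difference lay between -4.62 and -4.31 with an exact permutation p = 0.0571.

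VDR peak numbers varied widely, from 1760 to 10100 in colon and from 1535 to 10384 in SI villus samples. With equal numbers of VDR peaks per sample, an alternative chosen after the data were seen, the differences were 1.38 and -6.37 percentage points, each with p = 0.0286 by the same exact test. By site, a VDR peak in any of these 8 samples lay at 18.1% of colon-only (289), 9.45% of villus-only (820) and 38.7% of sites called in all 6. A VDR peak in at least 2 colon and 0 SI villus VDR samples lay at 113 colon-only and 39 villus-only sites, and one in 0 colon and at least 2 SI villus VDR samples at 5 colon-only and 194 villus-only sites.

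Some named sites were among them. The Slc26a3 intronic site and the Nr3c2 site 416 kb upstream had a VDR peak in 4 of 4 colon and 0 of 4 SI villus samples, as had the Fzd10 site, and the Trpm6 intron had one in 4 colon and 1 SI villus samples. The site 21.1 kb past the start of Slc40a1, with ATAC-seq pileups of 14, 16 and 19 in colon samples and no peak in SI villus samples, had a VDR peak in 3 colon and 0 SI villus samples. On the villus side the Slc6a19 promoter had one in 0 colon and 4 SI villus samples, the Apoa4 site 3.35 kb past the start in 0 and 3, and an intron of Creb3l3, a lipid-regulating factor, in 0 and 3. The Gata6 site 321 kb away and a site 15.7 kb upstream of Insig1, a sterol sensor, had one in 1 colon and 4 SI villus samples.

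The SI crypt, the third compartment, holds the stem and dividing cells of the same segment as the villi, and its 3 ATAC-seq samples had no part in choosing the sites. Of colon-only sites 21.1%, 17.2% and 26.3% held a peak in the SI crypt samples, against 61.6%, 37.1% and 58.5% of villus-only sites. Each SI crypt sample was open at more villus-only than colon-only sites, and the difference averaged 30.9 percentage points, taken as villus-only minus colon-only, with an exact sign-flip permutation p of 0.25, the smallest that 3 samples allow. Of colon-only sites 1082 (67.8%) held a peak in 0 SI crypt samples and 190 (11.9%) in all 3, whereas 2258 villus-only sites (26.0%) held a peak in 0 and 2706 (31.2%) in all 3. Of sites called in all 6 samples, 86.7% were open in all 3 SI crypt samples.

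**Figure D5:**
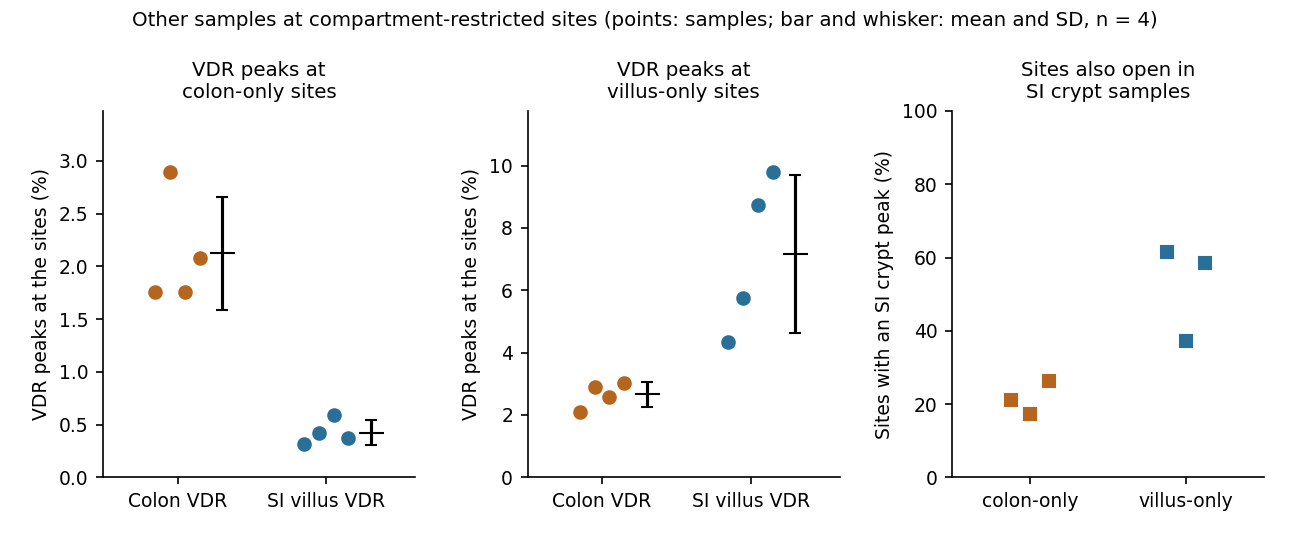
Percent of the VDR peaks of each of 4 colon and 4 SI villus VDR ChIP-seq samples at colon-only sites (left) and villus-only sites (center), with mean and SD, and percent of the sites of each class with a peak in each of 3 SI crypt ATAC-seq samples (right). Colon VDR samples average 2.12% at colon-only sites, against 0.423% in SI villus VDR samples.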

How the data were processed

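Peak lists of 3 colon and 3 SI villus ATAC-seq samples were analysed, with 3 SI crypt ATAC-seq and 8 VDR ChIP-seq lists as further readouts. Per the deposited file headers, the authors called peaks with MACS2 2.1.0.20150731 on mm9, without a control, at q 0.05 and with 1 tag kept per position. Submitters' processing notes also name cutadapt 1.9.1, Bowtie2 2.2.6, SAMtools 0.1.19, bedtools 2.17.0 and Picard 2.18.27. The deposited pileup is a signal, the fragments stacked at the summit. The authors' fold enrichment is the ratio of pileup to local background. The deposited −log10 q scores each peak. Read counts were not analysed here, so no count model was fitted. No source used here states the filter behind the authors' pooled lists. Shift and extension were set per list, and peaks on the mitochondrial chromosome (2 per list) were left out.

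Sites were linked to the nearest protein-coding start of GENCODE vM1 (mm9), with promoters within 1 kb. Equal numbers were 21269 peaks per list by pileup. Differences of sample values were tested by two-sided exact permutation (numpy 2.4.6, Python 3.11.15), and pileups were ranked within samples with scipy 1.17.1. Sites in all 6 samples were tested with limma 3.58.1 (R 4.3.3), with a trend, on quantile-normalized log2 fold enrichment, which was tested on simulated data. There the share of false calls kept near the adjusted threshold when the simulated differences were split over both compartments, and exceeded it when they were placed in colon alone, a form of the test that failed and was replaced. Motifs, read with pysam 0.24.0, were named by their factor and searched as letters: GATA by AGATAA, CDX by CATAAA, HNF4A by CAAAGTCCA, HNF1 by GTTAATNAT, HOX13 by TCGTAAA, AP-1 by TGANTCA, KLF by GGGNGTGG, CTCF by AGGGGGCGC, FOXA by TGTTTNC, ETS by CCGGAAGT, NRF1 by GCGCATGCG, BACH by GCTGAGTCA (which holds an AP-1 match), RUNX by TGTGGTT, TEAD by CATTCC, IRF by AAANNGAAA, PU.1 by GAGGAAGT and GR by ACANNNTGT. The compartments, gene lists and tests were chosen with earlier results of these data known. Named were up to 6 genes per list, the 15 genes nearest to the most restricted sites, the 10 strongest restricted sites of each kind and the 10 largest shared differences. Leaving out samples, equal numbers, a −log10 q of at least 5, other windows and scalings were tried as alternatives. A few sites and genes are not reported here.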

Additional observations from a re-analysis of the deposited data

How the results depend on the processing

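The number of colon-only sites was 1597, against 2954 at equal numbers by pileup, 3019 at equal numbers by −log10 q and 11414 intervals in the pooled lists, and between 1693 and 3270 without any 1 sample. Villus-only sites numbered 8673, against 3119, 3145 and 36341 in the same settings, 4398 at a −log10 q of at least 5, and between 8835 and 15811 without any 1 sample. Sites in all samples numbered 13159, against 28014 pooled colon intervals that overlapped a pooled SI villus interval. Sites stronger in colon by limma numbered 1359, against 2044 on pileup and 641 with distal sites alone, and between 524 and 1810 without any 1 sample. Those stronger in SI villus numbered 1418, against 601 with distal sites alone, and between 795 and 1696 without any 1 sample. Listed genes with a colon-only site numbered 47, against 21 within 10 kb and 79 at equal numbers, and with a villus-only site 133, against 76 and 78. The villus-only VDR difference lay between -5.43 and -3.61 percentage points without any 1 sample. With fewer samples fewer splits exist, and the causes of the other shifts were not tested.

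Shared replicate numbers did not pair the ATAC-seq samples, with correlations of -0.145, -0.00521 and -0.185 between deviations of same-numbered samples. With the replicate block limma called 979 and 1153 sites, and the exact sign-flip p for the VDR differences of 1.70 and -4.49 was 0.125, the smallest that 4 pairs allow. No difference or named value changed sign, but the order of counts turned in places. Sites stronger in colon and in SI villus numbered 1359 and 1418, against 2044 and 1859 on pileup and 1810 and 1696 without SI villus 3, distal ones 366 and 960, against 641 and 601 with distal sites alone, and listed genes with a colon-only and a villus-only site 47 and 133, against 79 and 78 at equal numbers. Of the remaining alternatives 94 values of whole comparisons and 457 of named items kept their call or stayed within 1.5 times, and 52 of named items moved. Peak lists carry no signal below the threshold, so closed and weakly open DNA could not be separated. The deposited interval files of single samples hold summits only, and that alternative was not run.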

Other observations

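Genes of other epithelial lineages and of junctions were also counted against 5.78% of all genes with a colon-only and 22.0% with a villus-only site. Stem and crypt genes had a colon-only site at 2 of 15 and a villus-only site at 11 of 15, but at equal numbers of peaks at 3 and 5, and within 10 kb of a start at 1 and 2. Of 3 villus-only sites nearest to Olfm4, a stem cell marker of the SI, the closest lay 39.8 kb and the farthest 1858 kb from its start. Goblet cell genes had a colon-only site at 1 of 15 and a villus-only site at 8 of 15, but at equal numbers of peaks 1 and 1, and 10 of the 15 had no promoter peak in any colon or SI villus sample, as had 42.1% of all genes. Muc2, the main secreted mucin, had no restricted site. Enteroendocrine genes had 1 of 17 and 3 of 17, with no promoter peak at 13, and tuft cell genes 0 and 0 of 8.

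Genes of drug and xenobiotic metabolism had a colon-only site at 5 of 17 and a villus-only site at 13 of 17, and at equal numbers of peaks at 5 and 7. The site 19.9 kb upstream of Cyp2c55, a cytochrome P450, had pileups of 32, 52 and 83 in colon samples and no peak in SI villus samples, while its promoter was open in all 6 samples. Bile acid genes had 1 of 8 and 5 of 8, with the promoter of Nr0b2, a bile acid responsive repressor, at no peak in colon samples and 41, 31 and 19 in SI villus samples. Among 13 claudins and junction genes, 2 had a colon-only and 4 a villus-only site, and promoters of 8 were open in all 6 samples and of 2 in none. Of the others, Cldn8 was open in 2 colon and 0 SI villus samples, Cldn15 in 0 colon and 3 SI villus samples and Cldn2 in 0 colon and 1 SI villus samples.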
